A study of Tremella fuciformis and Annulohypoxylon stygium and Tremella fuciformis
Annulohypoxylon stygium with 5 samples.

Results

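Histones and the proteins that modify, carry and move them were examined in cultures of 2 fungi, Tremella fuciformis (a basidiomycete grown for food) and its companion Annulohypoxylon stygium (an ascomycete). A unigene, which is a sequence assembled de novo from the reads, was taken when its SwissProt hit had an e-value of at most 1e-20 and a description naming a histone, chromatin, nucleosome, SWI/SNF, SNF2, a bromodomain or INO80. The rule took 165 of 42507 unigenes and used no expression value. Of these, 67 were assigned to T. fuciformis and 87 to A. stygium, because their highest FPKM in the libraries of that fungus alone or after interaction was at least 1 and at least 10 times that in the other fungus. A further 6 reached 1 FPKM without that ratio and are called shared, and 5 stayed below 1 FPKM in all 4 single-fungus libraries.

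Both fungi were labelled wild type. The 5 libraries of mycelia, 1 per group, were T. fuciformis 1 week after contact with its partner, A. stygium likewise 1 week after contact, the dual mycelia of both 1 week after they met, T. fuciformis alone at 2 weeks and A. stygium alone at 1 week. The labels do not state the total age of the interacting mycelia, so age and interaction cannot be told apart, nor whether cultures were pooled. With 1 library per group there is no spread between replicates, no test was made, and each difference below is between libraries. Levels are in FPKM (fragments per kilobase of unigene, scaled to library size). For ratios the unigenes of a fungus were rescaled to sum to 1e+06 in each library, since T. fuciformis made up 36.4% and A. stygium 59.0% of FPKM in the dual library, and the log2 ratio was taken after adding 1. The rescaling raised dual values relative to alone by 2.91 times in T. fuciformis and by 1.47 times in A. stygium.

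Eukaryotic DNA is wrapped around octamers of the core histones H2A, H2B, H3 and H4, with H1 on the linker. Chaperones carry histones to and from DNA, acetyltransferases and methyltransferases mark their tails, deacetylases and demethylases take the marks off, bromodomain proteins bind acetylated tails, and ATP-dependent remodellers slide or evict the octamers. In growing fungi, core histone transcripts are among the abundant messages and are made mainly when DNA is copied. Names given here are those of the nearest SwissProt hit, often from Saccharomyces cerevisiae, Schizosaccharomyces pombe, Neurospora crassa or Cryptococcus neoformans, and are not tested functions.

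The annotation that the rule did not use went with the label for most members. A KOG class for chromatin structure and dynamics was listed for 49 of the 66 T. fuciformis members with a KOG hit and for 51 of the 84 from A. stygium. The ISW2 and BDF1 unigenes, among others, were filed under transcription. The nearest Nr hit of T. fuciformis members lay in Tremella for 41, Trichosporon for 11 and Cryptococcus for 9, all Tremellomycetes. Among the rest, it lay in Microbotryum for the 4 histone H4 unigenes and in Rhizopus for the leading H3 contig, CL131.Contig3. The nearest Nr hit of A. stygium members lay in Rosellinia for 50 and Eutypa for 21, both Xylariales. Contigs of assembly clusters made up 41 of the 67 and 56 of the 87 members, so that the members stand for 50 and 57 clusters or single unigenes, and contigs of 1 cluster can divide reads of 1 gene.

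The highest levels among the members were those of histone unigenes in both fungi. In T. fuciformis the 17 histone unigenes summed to 4991 rescaled FPKM after interaction, 5761 in the dual library and 5953 alone. The log2 ratio of the sum was -0.25 after interaction. In the dual library it was -0.05, which became 0.12 when ratios were centred on the median of all T. fuciformis unigenes and -1.59 without rescaling. The 4 histone H4 unigenes were the largest part, with sums of 2591 rescaled FPKM after interaction, 3084 in the dual library and 3084 alone. Among them Unigene14551 had 568 FPKM after interaction, 273 FPKM in the dual library and 722 FPKM alone, and Unigene4386 had 543 FPKM after interaction, 200.4 FPKM in the dual library and 631 FPKM alone. Unigene9448, also H4, had 465 FPKM after interaction, 168 FPKM in the dual library and 498 FPKM alone, and the A. stygium libraries listed it at 2.62 FPKM after interaction and 2.53 FPKM alone. These H4 unigenes were lower after interaction than alone, with log2 ratios of -0.38, -0.25 and -0.14, while Unigene4388 had 115 FPKM after interaction and 111 FPKM alone, a ratio of 0.01.

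Histone H3 was spread over 6 contigs of cluster CL131, led by CL131.Contig3 with 384 FPKM after interaction, 151 FPKM in the dual library and 458 FPKM alone. Their rescaled sum was 1397 after interaction, 1626 in the dual library and 1592 alone. The least abundant of them, CL131.Contig10, had 4.99 FPKM after interaction, 0.42 FPKM in the dual library and 6.54 FPKM alone. Its log2 ratio in the dual library was -1.95, against 0.01 for the cluster summed. That cluster also holds contigs named for a mitochondrial respiratory factor. For H2B, Unigene8007 had 208 FPKM after interaction, 62.6 FPKM in the dual library and 271 FPKM alone, and CL4154.Contig2 had 128 FPKM after interaction, 38.7 FPKM in the dual library and 152 FPKM alone. The sum of H2B had a log2 ratio of -0.37 after interaction and of -0.52 in the dual library, or -0.35 there with centring. Those of H3 were -0.19 after interaction and 0.03 in the dual library, and those of H4 were -0.25 and 0.00. The linker histone H1, CL3213.Contig2, had 196 FPKM after interaction, 78.0 FPKM in the dual library and 236 FPKM alone.

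The variant histones of T. fuciformis were less abundant. H2A.Z, the H2A variant found at promoters, was led by CL5191.Contig1 with 69.5 FPKM after interaction, 27.5 FPKM in the dual library and 78.4 FPKM alone. A second H2A.Z sequence, Unigene18753, reached 2.17 FPKM after interaction, 1.36 FPKM in the dual library and was listed at 0 alone. The centromeric H3 variant named after CSE4, Unigene4873, had 44.2 FPKM after interaction, 15.4 FPKM in the dual library and 65.5 FPKM alone. Its log2 ratio was -0.60 after interaction, the lowest of the 17 histones, and -0.54 in the dual library. No T. fuciformis unigene within the e-value limit was named canonical H2A, and the unigenes so named outside it, Unigene7963 and CL2405.Contig1, had 31.6 and 7.36 FPKM alone.

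In A. stygium the 14 histone unigenes summed to 9056 rescaled FPKM after interaction, 8335 in the dual library and 10920.2 alone. The log2 ratio of the sum was -0.27 after interaction and -0.39 in the dual library. Centring gave -0.14 after interaction and -0.29 in the dual library. Without rescaling the ratio of the sum was -0.94 in the dual library, where the median of all A. stygium unigenes was -0.55. The smaller share of A. stygium in the dual library lowers its unscaled values, so the unscaled ratio cannot show a direction. Histone H3, CL4141.Contig2, had 1459 FPKM after interaction, 928 FPKM in the dual library and 1753 FPKM alone. Histone H2A, CL4229.Contig2, had 1120.0 FPKM after interaction, 612 FPKM in the dual library and 1308 FPKM alone. The main H4 unigene, Unigene4389, had 819 FPKM after interaction, 446 FPKM in the dual library and 934 FPKM alone. H2B, Unigene5980, had 685 FPKM after interaction, 445 FPKM in the dual library and 722 FPKM alone. Each of these core histones was highest alone. After rescaling, log2 ratios in the dual library were -0.36 for H3, -0.54 for H2A, -0.51 for Unigene4389 and -0.15 for H2B.

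Linker histone H1 had the lowest ratios among A. stygium histones over 100 FPKM, at -0.50 after interaction and -0.61 in the dual library. It stood at 247 FPKM after interaction, 149.7 FPKM in the dual library and 335 FPKM alone (CL4405.Contig1). Less abundant histones had lower dual ratios. These were the H2A.Z unigenes CL1747.Contig2 (-0.74) and Unigene13042 (-0.69) and the H4 contig CL2833.Contig6 (-0.91, or 0.36 with its cluster summed). The 4 H2A.Z unigenes had between 27.1 and 44.7 FPKM after interaction, between 11.9 and 29.2 FPKM in the dual library and between 20.4 and 44.9 FPKM alone. Their rescaled sum was 265 after interaction, 220 in the dual library and 296 alone. The centromeric variant hH3v, Unigene4932, had 29.6 FPKM after interaction, 18.5 FPKM in the dual library and 30.4 FPKM alone, with log2 ratios of -0.10 after interaction and -0.16 in the dual library. The H4 contig CL2833.Contig2, at 10.95 FPKM after interaction, 10.91 FPKM in the dual library and 7.86 FPKM alone, had ratios of 0.40 after interaction and 0.98 in the dual library. With the contigs of its cluster summed these turned to -0.35 after interaction and became 0.36 in the dual library. In all, 12 of 14 A. stygium histones had a log2 ratio below 0 after interaction and 13 of 14 in the dual library, where 60.1% and 55.8% of all A. stygium unigenes did. These counts were taken without centring.

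**Figure D1:**
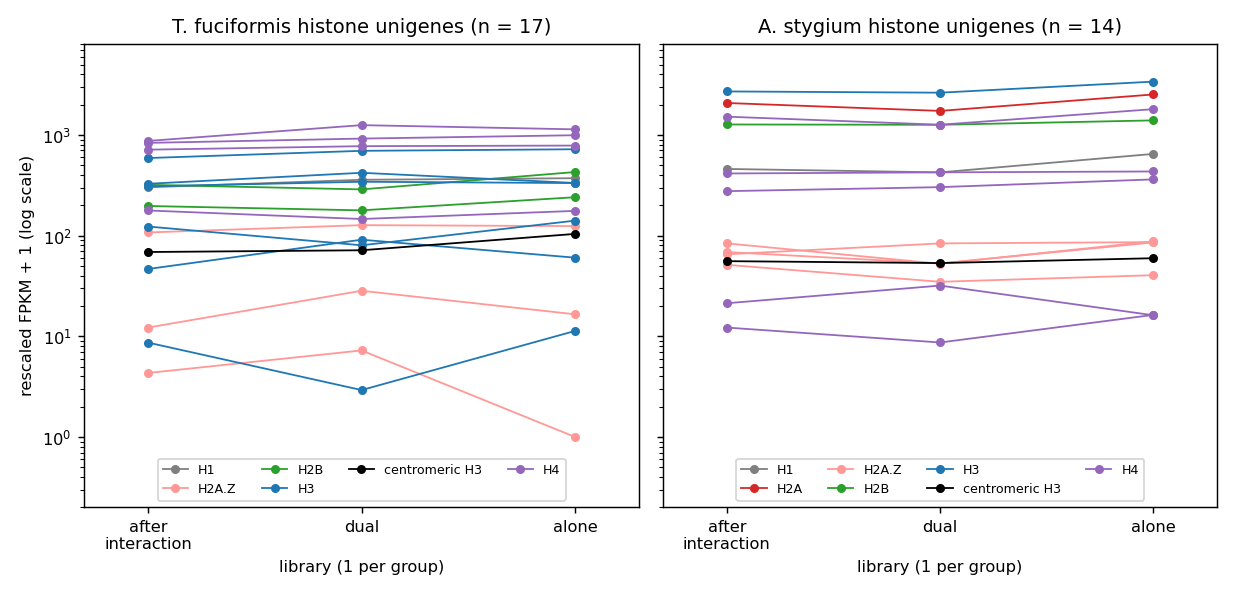
Level of each histone unigene (rescaled FPKM plus 1, log axis) in the library after interaction, the dual library and the library alone, for the 17 unigenes of T. fuciformis and the 14 of A. stygium. Each line joins the values of 1 unigene and colours give the histone type; most lines are nearly level, and the T. fuciformis H2A.Z unigene listed at 0 alone sits at the bottom of its panel.

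The chromosomal protein NHP6, an HMG-box protein that bends DNA, was measured in both fungi. In T. fuciformis Unigene5208 had 87.5 FPKM after interaction, 32.0 FPKM in the dual library and 111 FPKM alone, with log2 ratios of -0.38 after interaction and -0.25 in the dual library (-0.08 there with centring). In A. stygium it was more abundant, at 479 FPKM after interaction, 307 FPKM in the dual library and 512 FPKM alone in CL6721.Contig4, and CL6721.Contig3 had 377 FPKM after interaction, 209 FPKM in the dual library and 383 FPKM alone. Their sum moved by -0.12 after interaction, which became 0.00 with centring, and by -0.24 in the dual library.

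T. fuciformis after interaction was set against T. fuciformis alone to ask which chromatin transcripts differed once it had met its partner. All 67 members passed the filter of 1 FPKM in 1 of the 2 libraries, as assignment itself requires, and 65 lay within 2-fold. At least 2-fold higher were 2 members (2.99%), where 10.4% of all T. fuciformis unigenes were, and 0 members were at least 2-fold lower, where 5.26% of all were. The median log2 ratio was -0.16, against -0.01 over all unigenes, and 50 of 67 members lay below 0, or 74.6% against 51.0%. The share of members past 2-fold was below that of all unigenes, and 66 of the 67 members reached 5 FPKM in a single-fungus library. With at least 10 FPKM required, 1 of 62 members was higher and 0 lower, where 3.41% and 1.63% of all were. The part of expression level in the difference was not tested.

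The 2 members past 2-fold were a low unigene and a contig. The H2A.Z sequence Unigene18753 had 2.17 FPKM after interaction and was listed at 0 alone. The SAS3-named acetyltransferase contig CL3498.Contig1 had 13.6 FPKM after interaction and 1.69 FPKM alone, a log2 ratio of 2.58, while its cluster partner CL3498.Contig2, named after the acetyltransferase ESA1, had 19.3 FPKM after interaction and 29.4 FPKM alone, a ratio of -0.63. Summed, the cluster had 32.9 FPKM after interaction and 31.1 FPKM alone, a log2 ratio of 0.04. The lowest ratio was that of HST3 (Unigene2435), in S. cerevisiae a sirtuin deacetylase of newly assembled histone H3, with 10.7 FPKM after interaction and 18.0 FPKM alone, a log2 ratio of -0.75. HAT1, which acetylates newly made H4, had 14.1 FPKM after interaction and 21.5 FPKM alone in CL3518.Contig1, a ratio of -0.62. Both lay within 2-fold.

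The other groups of T. fuciformis regulators stood close to level after interaction. Chaperones were led by NAP1 (CL5898.Contig1), a carrier of H2A and H2B, with 263 FPKM after interaction and 284 FPKM alone, and by ASF1 (Unigene13580), a carrier of H3 and H4, with 91.2 FPKM after interaction and 94.6 FPKM alone. The 16 unigenes of acetyltransferases and their complexes had a median of -0.03, and their most abundant member ESA1 (Unigene6725), the catalytic subunit of NuA4, had 97.7 FPKM after interaction and 92.5 FPKM alone. The 7 deacetylases had a median of -0.04, with clr6 (Unigene10510) at 51.6 FPKM after interaction and 51.0 FPKM alone and RPD3 (Unigene7552) at 32.4 FPKM after interaction and 29.4 FPKM alone. The 6 methyltransferases had a median of -0.22. Among them DOT1 (Unigene6886), which methylates H3 at lysine 79, had 44.1 FPKM after interaction and 36.8 FPKM alone, and SET1 (Unigene1927), for lysine 4, had 34.3 FPKM after interaction and 39.7 FPKM alone. Of the 13 remodellers 11 lay below 0, where 51.0% of all T. fuciformis unigenes did, and all 13 were within 2-fold. The SWI/SNF and RSC subunit ssr3 (Unigene9681) had 93.7 FPKM after interaction and 79.2 FPKM alone, and its partner ssr2 (Unigene6898) had 75.6 FPKM after interaction and 91.0 FPKM alone.

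The dual library was compared with T. fuciformis alone. In a mixed sample, fewer hyphae of a fungus and less RNA per hypha cannot be told apart, so only its own unigenes are set against each other. Of 67 members, all tested, 3 (4.48%) stood 2-fold or more above alone and 5 (7.46%) 2-fold or more below it, where 12.6% and 13.2% of all T. fuciformis unigenes were. The median was -0.21 against -0.17 for all, and 43 members (64.2%) lay below 0, against 59.5%. Centred on the median of all, the counts were 3 higher and 1 lower, where 15.0% of all were higher and 10.8% lower. Without rescaling they were 2 higher and 62 lower, where 3.60% of all were higher and 70.8% lower.

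The 3 higher T. fuciformis members in the dual library were both contigs of the demethylase JHD1 and the H2A.Z sequence Unigene18753. Unigene18753 had 1.36 FPKM in the dual library and was listed at 0 alone, and its log2 ratio of 2.85 depends on the added 1. JHD1 carries a JmjC domain and in S. cerevisiae takes methyl groups off lysine 36 of H3. CL5382.Contig1 had 21.1 FPKM after interaction, 38.1 FPKM in the dual library and 17.2 FPKM alone, so its deposited level was highest in the library where T. fuciformis held the smallest share. The A. stygium libraries listed it at 0 after interaction and 0.02 FPKM alone. Its log2 ratio in the dual library was 2.65, or 1.11 without rescaling. CL5382.Contig2 had 5.16 FPKM after interaction, 6.45 FPKM in the dual library and 5.5 FPKM alone, a dual ratio of 1.66, and lay within 2-fold without rescaling. The cluster has another contig, CL5382.Contig3, which is no member and is named after an aldo-keto reductase at a weak e-value of 3.6e-13. That contig had 14.4 FPKM after interaction, 71.0 FPKM in the dual library and 0.93 FPKM alone, and the whole cluster summed had a dual ratio of 3.80. The part of that contig in the JHD1 values was not tested, and the sequences were not analysed here.

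The 5 lower T. fuciformis members in the dual library were contigs of HAT1 (in 2 clusters), SAS3 and H3, and HST3. HAT1 in CL3518.Contig2 had 20.8 FPKM after interaction, 3.92 FPKM in the dual library and 25.3 FPKM alone, a dual log2 ratio of -1.10, and with its sister contig summed the ratio was -1.06. A second HAT1 cluster, CL6214, had a summed ratio of -0.54, although its contig CL6214.Contig1 was at -1.03. HST3 (Unigene2435) had 10.7 FPKM after interaction, 2.81 FPKM in the dual library and 18.0 FPKM alone, a dual ratio of -1.08, and was the lowest of the 7 deacetylases in both comparisons. NAP1 had 263 FPKM after interaction, 55.0 FPKM in the dual library and 284 FPKM alone, a dual ratio of -0.82 and within 2-fold. ASF1 had 91.2 FPKM after interaction, 33.2 FPKM in the dual library and 94.6 FPKM alone, a dual ratio of 0.03. With centring the HAT1 contigs CL3518.Contig2 and CL6214.Contig1 came to -0.93 and -0.86, HST3 to -0.91 and the SAS3 contig CL3498.Contig1 to -0.87. These lay within 2-fold, while the H3 contig CL131.Contig10 stayed past it at -1.78.

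**Figure D2:**
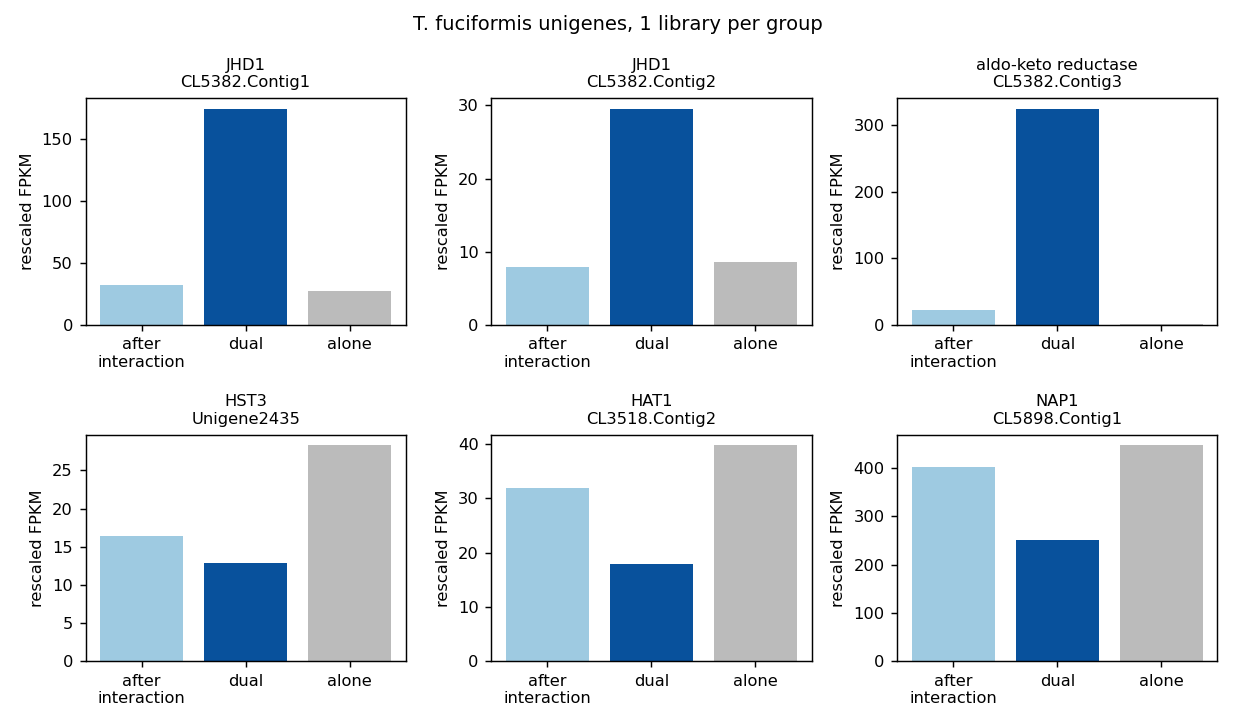
Rescaled FPKM of 6 T. fuciformis unigenes in the library after interaction, the dual library and the library alone (bars, 1 library each, every axis from 0). Both JHD1 contigs and the aldo-keto reductase contig of the same cluster are highest in the dual library, while HST3, HAT1 and NAP1 are lowest there.

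Other T. fuciformis regulators stayed within 2-fold in the dual library. The 13 remodellers had a median of -0.25, against -0.17 for all T. fuciformis unigenes. Of them 11 lay below 0, where 59.5% of all did. INO80 (CL5878.Contig3) had 16.1 FPKM after interaction, 4.34 FPKM in the dual library and 20.4 FPKM alone, a dual ratio of -0.66. The ssr2 unigene had 75.6 FPKM after interaction, 19.4 FPKM in the dual library and 91.0 FPKM alone, a dual ratio of -0.68. The methyltransferase group had a median of -0.12, and the clr4-named unigene for lysine 9 of H3 (Unigene10773), the mark of heterochromatin in S. pombe, had 30.3 FPKM after interaction, 7.8 FPKM in the dual library and 28.7 FPKM alone. The ING-family protein png1 (Unigene7870) had the highest ratio outside JHD1 and the histones, 0.44, with 26.4 FPKM after interaction, 13.7 FPKM in the dual library and 29.2 FPKM alone. The bromodomain protein BDF1, a reader of acetylated H4, was level in both contigs, each with a dual ratio of 0.09.

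A. stygium after interaction was set against A. stygium alone. All 87 members were tested and 81 lay within 2-fold. At least 2-fold higher were 2 (2.3%), against 9.89% of all A. stygium unigenes, and 4 (4.6%) were at least 2-fold lower, against 11.3%. With centring 4 were higher and 4 lower, where 11.2% of all were higher and 9.55% lower. The median was -0.30 against -0.13 for all, and 70 of 87 (80.5%) lay below 0, against 60.1%. Every role group had a median below 0. They ran from -0.12 in NHP6, which is not below the median of all, to -0.48 in chaperones and assembly. That last group also holds unigenes named after hrr1, a helicase required for RNAi-mediated heterochromatin assembly.

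All 6 A. stygium members past 2-fold after interaction were contigs whose cluster sum lay within 2-fold. The RSC subunit contig CL2701.Contig2, of a remodeller that opens promoters, was listed at 0 after interaction and had 10.1 FPKM alone, but its cluster had 30.9 FPKM after interaction and 42.7 FPKM alone, a log2 ratio of -0.52. Of the H3 lysine 4 methyltransferase set-1, CL6677.Contig1 had 1.27 FPKM after interaction and 6.76 FPKM alone, while CL6677.Contig2 had 15.6 FPKM after interaction and 11.9 FPKM alone, and the sum moved by -0.19. For GCN5, the catalytic subunit of SAGA, CL5419.Contig2 had 0.99 FPKM after interaction and 5.11 FPKM alone, CL5419.Contig4 had 1.79 FPKM after interaction and was listed at 0 alone, and the cluster moved by -0.19. The contig CL4246.Contig2, of the deacetylase clr3 that acts in S. pombe heterochromatin, had 4.66 FPKM after interaction and was listed at 0 alone, with a cluster ratio of -0.17. The remaining contig, CL1074.Contig3, had 2.67 FPKM after interaction and 9.7 FPKM alone. Its cluster, the methyltransferase set-2 for lysine 36, had the largest shift among these sums, -0.61, with 45.0 FPKM after interaction and 66.1 FPKM alone.

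Single unigenes of A. stygium, which belong to no cluster, had no ratio past 2-fold. The H3 acetyltransferase rtt109 (Unigene6891) had 18.2 FPKM after interaction and 24.2 FPKM alone, a ratio of -0.45, and GCN5 (Unigene3794) had 30.7 FPKM after interaction and 39.5 FPKM alone, a ratio of -0.41. RPD3 (Unigene9707) had 31.9 FPKM after interaction and 42.0 FPKM alone. The demethylase lsd1 (Unigene9536) had 12.4 FPKM after interaction and 16.0 FPKM alone, and the remodeller ISW2 (Unigene13897) had 33.8 FPKM after interaction and 38.0 FPKM alone. Each of these was lower after interaction, within 2-fold. Above 0 lay, among others, the H2A.Z sequence Unigene4120, at 27.1 FPKM after interaction and 20.4 FPKM alone, and the SWI/SNF subunit sol1 (Unigene10917), with 15.4 FPKM after interaction and 12.6 FPKM alone. Another unigene named sol1, Unigene13407, had a ratio of -0.33.

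In the dual library 85 of the 87 A. stygium members passed the filter. At least 2-fold higher were 2 (2.35%), against 11.9% of all, and at least 2-fold lower were 8 (9.41%), against 14.8%. With centring 4 were higher and 7 lower, where 13.5% of all were higher and 13.4% lower. Without rescaling 1 was higher and 21 lower, where 5.62% of all were higher and 22.3% lower. The median was -0.26 against -0.10, and 64 members (75.3%) lay below 0, against 55.8%. All 10 members past 2-fold again had a cluster sum within 2-fold, so that 0 of 56 clusters passed 2-fold in either direction, where 9.79% of all clusters and single unigenes of A. stygium were higher and 11.7% lower.

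The group of chaperones and assembly held the most of these lower contigs, 3 of its 6 tested members. Of all A. stygium unigenes 14.8% were lower. RTT106, a carrier of H3 and H4, had 4.35 FPKM after interaction, 1.0 FPKM in the dual library and 6.23 FPKM alone in CL4446.Contig3, a dual ratio of -1.77. In CL4446.Contig4 its dual ratio was -1.17. In CL4446.Contig5 RTT106 had 5.54 FPKM after interaction, 5.28 FPKM in the dual library and 3.99 FPKM alone, a dual ratio of 0.87. The cluster, which also holds an aldo-keto reductase contig, moved by -0.18. The other lower contig of the group, CL7038.Contig1 of HIR3, had 0.35 FPKM in the dual library and 1.65 FPKM alone. Its dual ratio was -1.07, or -0.61 with its cluster summed. Among the methyltransferases the set-2 cluster CL1074 had 45.0 FPKM after interaction, 24.95 FPKM in the dual library and 66.1 FPKM alone, a dual ratio of -0.84. The heterochromatin enzyme dim-5, which methylates lysine 9 of H3 in N. crassa, had 15.7 FPKM after interaction, 8.72 FPKM in the dual library and 20.4 FPKM alone in CL1022.Contig2, and a summed dual ratio of -0.65. The acetyltransferase rtt109 had 18.2 FPKM after interaction, 9.81 FPKM in the dual library and 24.2 FPKM alone, a dual ratio of -0.73. By contrast sol1 (Unigene10917) had 15.4 FPKM after interaction, 17.0 FPKM in the dual library and 12.6 FPKM alone, a dual ratio of 0.96, the largest among the single-unigene members of A. stygium tested. The other unigene named sol1, Unigene13407, had 8.79 FPKM after interaction, 5.93 FPKM in the dual library and 10.7 FPKM alone, a dual ratio of -0.29. The deacetylase phd1, a class I enzyme, had 16.4 FPKM after interaction, 15.0 FPKM in the dual library and 14.2 FPKM alone in CL1418.Contig4. In CL1418.Contig5 it had 15.1 FPKM after interaction, 12.4 FPKM in the dual library and 10.7 FPKM alone, with a dual ratio of 0.64 for the cluster, which also holds a contig named after another enzyme.

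**Figure D3:**
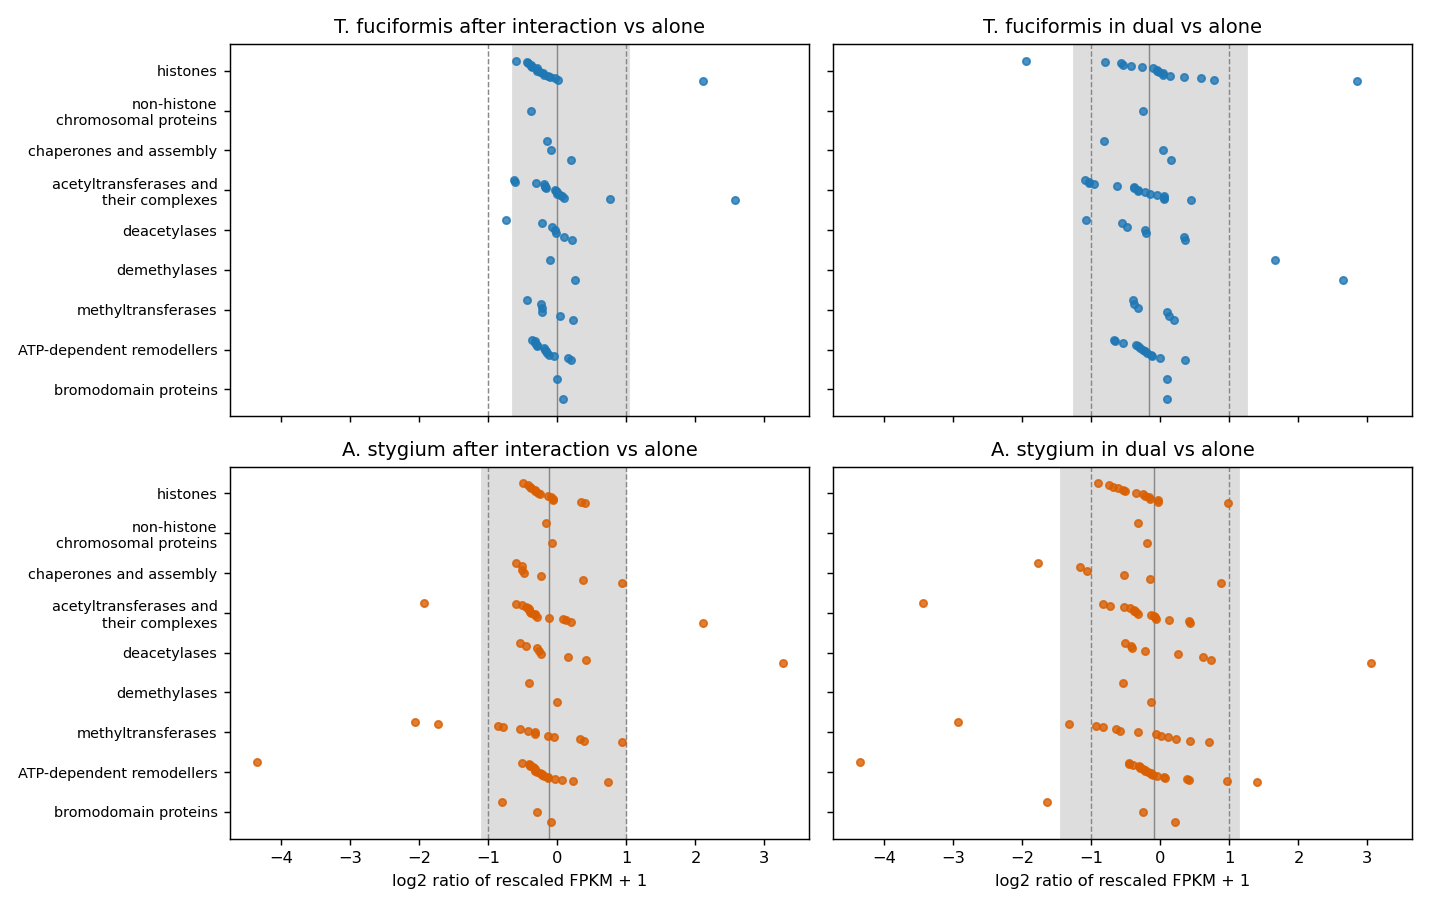
Log2 ratio of rescaled FPKM plus 1 for every tested member by role, in the 4 comparisons. The grey band spans the 10th to 90th percentile of all unigenes of the fungus, the solid line is their median and dashed lines mark 2-fold; most members lie inside 2-fold and left of 0, and the JHD1 contigs are the demethylases right of the band in the T. fuciformis dual comparison.

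**Figure D4:**
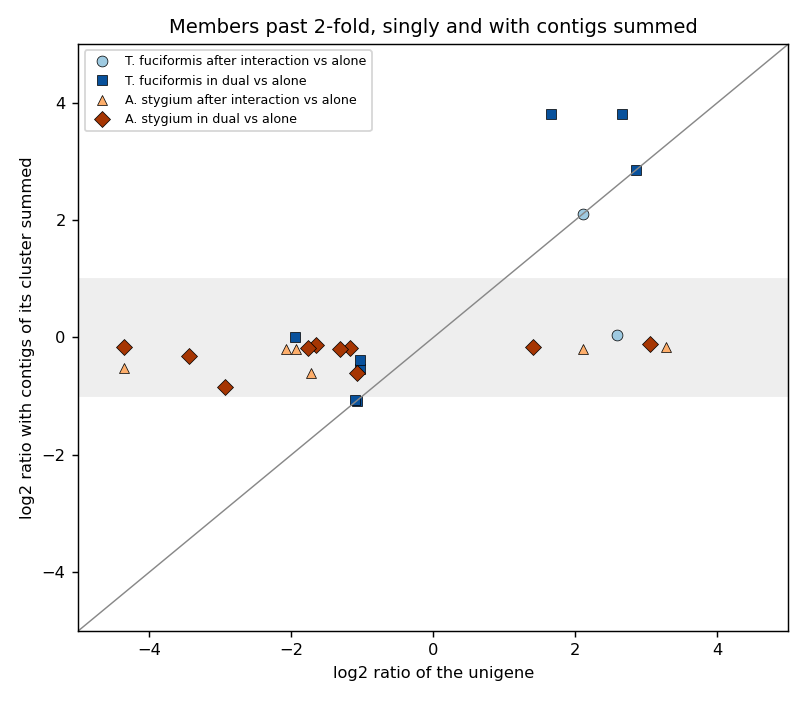
Log2 ratio of each member past 2-fold (x axis) against the log2 ratio with the contigs of its cluster and fungus summed (y axis), by comparison. The A. stygium points all fall in the grey band within 2-fold on the y axis, and the points outside it are the T. fuciformis JHD1, HAT1, HST3 and H2A.Z unigenes.

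Further chromatin genes that the rule did not take, among them FACT, COMPASS, SWR1, NuA4, condensin, cohesin and RuvB-like proteins, were counted by a second list of words, with 40 unigenes in T. fuciformis and 39 in A. stygium. After interaction 0 of 40 and 0 of 39 were at least 2-fold higher, where 10.4% and 9.89% of all unigenes of each fungus were. At least 2-fold lower were 0 of 40 and 1 of 39, where 5.26% and 11.3% of all were. In the dual library 0 of 40 and 0 of 39 were higher, against 12.6% and 11.9% of all. Lower there were 1 of 40 and 1 of 39, against 13.2% and 14.8%. Their medians were -0.16 after interaction and -0.31 in the dual library in T. fuciformis, and -0.27 in each comparison in A. stygium. Medians of the members were -0.16 after interaction and -0.21 in the dual library in T. fuciformis. In A. stygium they were -0.30 and -0.26.

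Of the 6 shared members, 5 had like levels in every library. All 6 had their nearest Nr hit in Cryptococcus, as did 51.9% of all 810 shared unigenes. Histone H2A, Unigene11788, had 8.75 FPKM in the dual library, 7.41 FPKM in T. fuciformis after interaction and 8.88 FPKM alone, and 9.80 FPKM in A. stygium after interaction and 11.8 FPKM alone. Histone H2B, CL4154.Contig1, had 14.6 FPKM in the dual library, 10.9 FPKM in T. fuciformis after interaction and 7.66 FPKM alone, and 10.3 FPKM in each A. stygium library. The H4 unigenes Unigene3185 and Unigene8920 and the NHP6 unigene Unigene8955 ran alike. Over these 5 unigenes the levels lay between 3.63 and 15.1 FPKM, and no unigene's highest library exceeded its lowest by more than 1.98 times. The remaining shared member, a nucleosome assembly protein (Unigene6310), lay between 0.30 and 1.52 FPKM. What these sequences come from was not tested. The 5 members below 1 FPKM in the single-fungus libraries were contigs of GCN5, NAP1, phd1, H3 and dim-5, with at most 0.86 FPKM there.

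**Figure D5:**
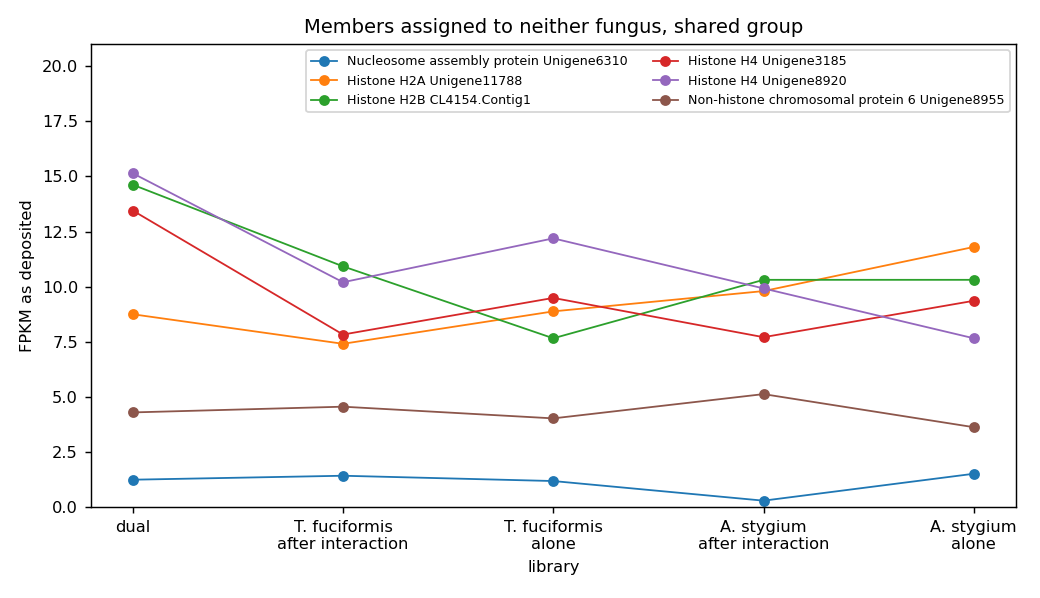
FPKM as deposited of the 6 shared members in the dual library and in the 4 single-fungus libraries, with a line for each unigene. The histone and NHP6 lines stay between 3.63 and 15.1 FPKM in all 5 libraries.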

How the data were processed

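Total RNA was taken with Trizol and sequenced on Illumina libraries, per the labels' protocols. The authors deposited 1 table of FPKM values for de novo assembled unigenes, with hits in Nr, SwissProt, KOG and other databases per the file headers; which assembler and aligner made it was not stated. FPKM gives no counts and no unigene lengths were used, so the depth behind a value is unknown. Between libraries the most frequent log2 ratio of values from 0.2 to 2 FPKM, which follows relative depth, lay between -0.2 and 0.1.

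The analysis used Python 3.11.15 and pandas 2.3.3. Unigenes of a fungus were rescaled to sum to 1e+06, a pseudocount of 1 was added, and a unigene was compared where either library reached 1 FPKM. The pseudocount shrinks the log2 ratios of low values. The arithmetic was checked by putting known changes into abundant unigenes of the table, which does not bear on low values, split contigs or the dual library. Members were sorted into 9 role groups by words in their descriptions, and 3 unigenes (both JHD1 contigs and SNF2) were placed by hand. The list of unigenes to name held all histones, the most abundant member of each role group, and the 5 highest and 5 lowest ratios per comparison. Those ratios were taken among members of at least 5 FPKM, with the cluster sum where it differed by over 1 log2 unit. The text leaves out some unigenes of that list, histones among them. Others named were chosen after their values were seen. Members, lists and rules were chosen with earlier results of these data known. Alternatives were a pseudocount of 0.1, no filter, at least 10 FPKM, no rescaling, centring on the median of all unigenes, and contigs of a cluster summed.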

Additional observations from a re-analysis of the deposited data

Results flagged for a closer look

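The acetyltransferase contig CL3498.Contig1 of T. fuciformis, named after SAS3, moved in opposite directions in the contact libraries, with a log2 ratio of 2.58 after interaction and -1.04 in the dual library. It had 13.6 FPKM after interaction, 0.17 FPKM in the dual library and 1.69 FPKM alone, and the difference was not tested. With centring the ratios were 2.59 and -0.87, the latter within 2-fold. With contigs of its cluster summed they were 0.04 and -0.38.

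CL1022.Contig1, named after the H3 lysine 9 methyltransferase dim-5, was below 1 FPKM in all single-fungus libraries and so entered no comparison, but had 2.66 FPKM in the dual library. It was listed at 0.09 FPKM in T. fuciformis after interaction and at 0 in the other single-fungus libraries. Its sister contig CL1022.Contig2, assigned to A. stygium, had 8.72 FPKM in the dual library.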

How the results depend on the processing

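No paired analysis was possible because each group had 1 library. The counts of members past 2-fold are small and depended on low values, contigs and scaling. With at least 10 FPKM required, 1 of 62 T. fuciformis members was higher and 0 lower after interaction. In the dual library 1 of 61 was higher and 2 lower. In A. stygium 0 of 56 were higher and 1 lower after interaction, and 0 of 55 higher and 1 lower in the dual library. Of all unigenes so filtered, 3.41% were higher and 1.63% lower in T. fuciformis after interaction and 6.75% and 7.57% in the dual library, and in A. stygium 4.26% and 3.26% after interaction and 9.13% and 6.51% in the dual library. With contigs summed, 1 of 50 T. fuciformis clusters was higher and 0 lower after interaction. In the dual library 2 of 50 were higher and 2 lower. A. stygium had 0 of 57 higher and 0 lower after interaction, and 0 of 56 higher and 0 lower in the dual library. The H3 contig CL131.Contig10 turned to 0.01. Of all clusters and single unigenes, 9.53% were higher and 3.99% lower in T. fuciformis after interaction and 11.8% and 10.3% in the dual library, and in A. stygium 8.14% and 8.65% after interaction and 9.79% and 11.7% in the dual library. A pseudocount of 0.1 gave 5 higher A. stygium members after interaction and 4 in the dual library, where 11.8% and 13.6% of all were higher. Without rescaling the dual library had 62 lower T. fuciformis members, and 1 higher and 21 lower A. stygium members. The median of all unigenes then lay at -1.42 and -0.55. On the list of unigenes to name, 11 T. fuciformis members above 0 became at least 2-fold lower. Centring gave 1 lower T. fuciformis member in the dual library and 4 higher A. stygium members in each comparison. Removing the filter changed none of these counts. The median log2 ratio of members was below 0 in each of the 4 comparisons under the main settings. So was that of all unigenes, at -0.01 and -0.17 in T. fuciformis and -0.13 and -0.10 in A. stygium. With centring 48 of 67 T. fuciformis members lay below 0 after interaction and 35 of 67 in the dual library. In A. stygium these were 60 of 87 and 57 of 85. Unknown depth limits values near 1 FPKM most.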

Other observations

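Outside the e-value limit lay 104 unigenes whose descriptions match the same words, 54 of T. fuciformis and 39 of A. stygium. Those closest to the limit were RSC7 (CL6557.Contig2) inside it, at 2.5e-21, and histone H4 (CL2833.Contig4) outside it, at 2e-20; the RSC7 contig had 29.6 FPKM in T. fuciformis after interaction and 32.3 FPKM alone, and the H4 contig had 6.96 FPKM in A. stygium after interaction and 11.1 FPKM alone.

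The A. stygium cluster CL7846 was singled out after its values were seen. Its contig named after condensin subunit 2, which helps to compact mitotic chromosomes (CL7846.Contig2), had 89.5 FPKM after interaction, 19.1 FPKM in the dual library and 123 FPKM alone, with log2 ratios of -0.52 and -2.12. The contig named after NHP6 at an e-value of 3.3e-11 (CL7846.Contig1) had 121 FPKM after interaction, 16.6 FPKM in the dual library and 169 FPKM alone, with ratios of -0.54 and -2.77. The NHP6 contigs that are members moved by -0.32 or less in the dual library.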
